A study of Macaca fascicularis with 16 samples.

Results

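Conjugated equine estrogens (CEE), a mixture of estrogens used in hormone replacement therapy, were compared with no treatment in the mammary gland of cynomolgus macaques. The comparison took the 4 arrays of animals given 0.042 mg/kg CEE and the 4 arrays of untreated control animals, 8 of the 16 arrays of the series. All 16 animals were female, post-menopausal and ovariectomized, so the controls too lacked ovarian hormone. The remaining arrays came from animals given the same CEE dose with 0.167 mg/kg medroxyprogesterone acetate (CEE+MPA), a progestin, or 0.2 mg/kg tibolone, a synthetic steroid. Their values are set beside those of CEE. They also entered the filter on low signal, the choice of 1 probe set per gene and the centring of list means. The error behind every standard error and p was shared with them. Each array held total RNA of whole mammary tissue of 1 animal, so a lower share of cells of a type and less RNA per cell cannot be told apart. The length of treatment and the animals' ages are not stated by the labels, and the probe sets were designed for the rhesus macaque.

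Estrogens act in the mammary gland through nuclear estrogen receptors that bind DNA and switch target genes on or off. Receptor-positive luminal epithelial cells respond directly and signal through secreted factors to neighbouring epithelial and stromal cells. Known readouts of receptor activity in breast epithelium include GREB1, PGR and the trefoil factor genes. The gland also holds myoepithelium, fibroblasts with their collagen and proteoglycan matrix, fat, vessels and macrophages.

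Values are signals in the linear intensity units of the arrays, given in the order of replicates 1 to 4. These numbers follow the order of the samples within each group and are not in the labels. Differences are on the log2(signal + 16) scale with the standard error of a limma fit, and a gene is said to rise or fall where its adjusted p was under 0.05 over all 28704 probe sets tested. ELF5, a luminal transcription factor of the mammary gland, gave signals of 4386 to 10616 in controls and 11518 to 13291 with CEE, and KRT8, a luminal keratin, 1061 to 1641 and 831 to 1139, so epithelium was present on all 8 arrays. Skeletal muscle markers, which the gland lacks, were high on control replicate 1. The poly-A spike-in controls divided these 8 arrays into a low and a high set, with 2 control and 2 CEE arrays in each. The 4 tibolone arrays, at 7.61 to 7.75 in log2 spike-in signal, lay in the gap between 7.28 and 7.84. They were counted as high. The log2 ratio of 3 prime to 5 prime GAPDH signal lay at 0.26 to 0.86 in controls and 0.035 to 0.80 with CEE. It divided the 8 arrays in the same way, at up to 0.26 in the low set and from 0.78 in the high set.

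Of the probe sets tested, 12 rose with CEE (0.0418%) and 9 fell (0.0314%). They included 15 named genes, of which 8 rose and 7 fell, and 6 probe sets without a gene symbol. In the plot of all probe sets the named genes that rose lay between 1.22 and 5.52 on the log2 scale, and the named genes that fell between -1.29 and -0.82. At an unadjusted p under 0.05 stood 6.68% of the 10452 genes in the higher direction and 7.47% in the lower. Counts of list members at that p, given below, are to be read beside these shares.

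**Figure D1:**
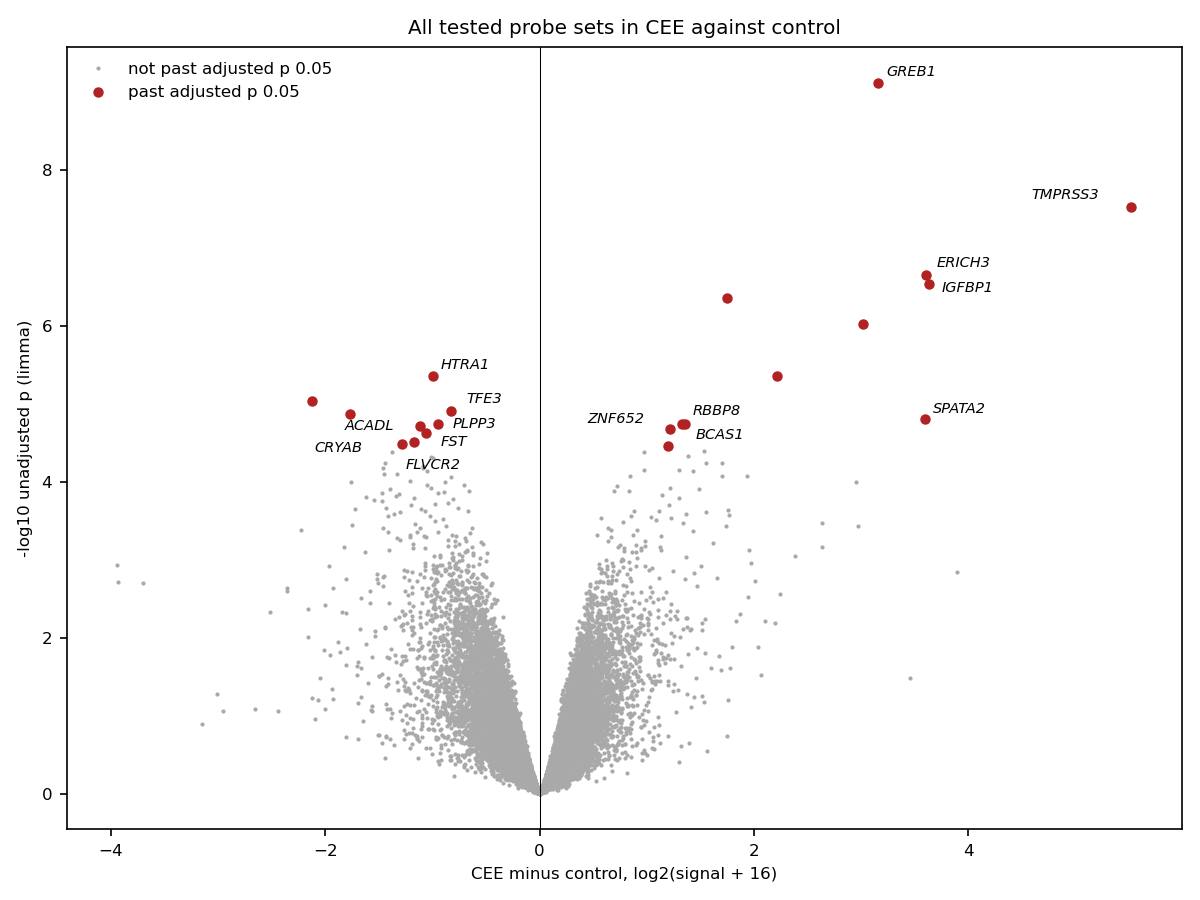
Each point is 1 tested probe set; the x axis gives CEE minus control in log2(signal + 16) and the y axis the negative log10 of the unadjusted limma p. The 21 probe sets past the threshold are red and the 15 with a gene symbol are named. GREB1 had the smallest p, and 1 of the 4 tested probe sets of TMPRSS3 had the largest difference, 5.52.

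GREB1, a coactivator of the estrogen receptor and one of its best known targets, gave signals of 41.4, 21.7, 23.3 and 30.1 on the control arrays and 431, 514, 398 and 234 on the CEE arrays. It was low in every control and high in every CEE animal. The rise was 3.15 ± 0.24 (adjusted p = 2.2e-05), and it passed under every alternative tried that kept its probe set. CEE replicate 4 had the lowest GREB1 signal of the group.

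TMPRSS3, which encodes a transmembrane serine protease, read 12.1, 19.04, 33.9 and 37.6 in controls and 2699.7, 2054, 3689.8 and 545 with CEE on the probe set that passed. This was the largest rise in the comparison, 5.52 ± 0.55 (adjusted p = 0.000438), again with CEE replicate 4 lowest among the treated animals. Its other 3 tested probe sets stood between -0.28 and 0.43 and did not pass. The 4 probe sets of TMPRSS3 therefore did not report the same difference, and the value belongs to 1 of them.

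IGFBP1, a secreted binding protein for insulin-like growth factors, read 105, 30.6, 26.4 and 69.5 in controls and 689, 530.2, 2342 and 516 with CEE. Every CEE array exceeded every control array, and replicate 3 stood above the other treated animals. The rise was 3.63 ± 0.43 (adjusted p = 0.00210).

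ERICH3, a gene coding for a glutamate-rich protein, read 51.1, 41.2, 30.6 and 23.5 in controls and 1060.2, 688, 789.8 and 237 with CEE, without overlap. It rose by 3.61 ± 0.42 (adjusted p = 0.00210). A second probe set of ERICH3 stood at 1.37, higher at an unadjusted p under 0.05, and its other 2 stood near 0.

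SPATA2, which encodes an adaptor of the ubiquitin machinery in tumour necrosis factor signalling, read 76.2, 18.3, 2.40 and 83.1 in controls and 655, 201, 1613 and 499 with CEE on the probe set that passed. The rise was 3.59 ± 0.59 (adjusted p = 0.0346), with a wide spread within both groups. The other 2 probe sets of SPATA2 stood at -0.13 and -0.053, which is no rise.

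RBBP8, an endonuclease factor of DNA double-strand break repair, read 201, 242, 298 and 291 in controls and 559, 963, 670.3 and 540.4 with CEE. BCAS1, named for its amplification in breast cancer, read 30.5, 51.8, 43.6 and 56.6 and 146, 199.5, 114 and 112. ZNF652, a zinc-finger repressor of transcription, read 856, 771, 907 and 974 and 2216, 1806, 2059 and 2163. None of the 3 overlapped between groups, and they rose by 1.33 ± 0.22, 1.35 ± 0.22 and 1.22 ± 0.20, with adjusted p of 0.0346, 0.0346 and 0.0357 in limma. A further probe set of ZNF652, with a higher mean signal, stood at 0.12 and did not pass.

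HTRA1, a secreted serine protease that cleaves matrix proteins and restrains transforming growth factor beta signalling, read 6077, 5480.04, 4553 and 4147 in controls and 2459.5, 2660.1, 2874 and 2077 with CEE. It fell by 0.998 on the log2 scale (limma, adjusted p = 0.0161). All 3 of its probe sets were lower, the others at -0.67 and -0.41.

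FST, which encodes follistatin, the secreted inhibitor of activin, read 416, 573, 438 and 386 in controls and 235, 203, 207 and 187 with CEE. The treated animals lay in a narrow band below all controls, and the difference was -1.06 ± 0.18 (limma, adjusted p = 0.0384). Its other 2 probe sets stood at -0.77 and -0.33.

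PLPP3, a membrane phosphatase that breaks down lysophosphatidic acid, read 3534, 3859.5, 3106 and 2617 in controls and 1762, 1679.8, 1564 and 1711 with CEE. The difference on the probe set that passed was -0.95 ± 0.16 (limma, adjusted p = 0.0346). All 4 probe sets of PLPP3 were lower at an unadjusted p under 0.05, the others between -0.88 and -0.68.

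Another 4 genes fell on a dim probe set. FLVCR2, a membrane transporter, differed by -1.17 ± 0.20 (limma, adjusted p = 0.0466), and its other probe set stood at -0.98. TFE3, a transcription factor of lysosomal genes, differed by -0.82 ± 0.13, and ACADL, which encodes the long-chain acyl-CoA dehydrogenase of fatty acid oxidation, by -1.12 ± 0.19. Their other probe sets stood between -0.26 and -0.12 for TFE3 and at -0.23 and -0.14 for ACADL, and none of these passed. CRYAB, a small heat shock protein gene, read 137, 115, 83.7 and 91.8 in controls and 18.2, 27.96, 67.95 and 31.9 with CEE on the probe set that fell by 1.29. Its other probe set stood at 0.13, with the opposite sign.

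Of the 15 genes, 4 had a single tested probe set and 11 had several. In 2 of the 11, PLPP3 and FLVCR2, every probe set differed in the same direction at an unadjusted p under 0.05. In 3, HTRA1, FST and ERICH3, some but not all others did. In the other 6 (TMPRSS3, SPATA2, ZNF652, TFE3, ACADL and CRYAB) only the probe set that passed did, and whether the probe sets report different transcripts was not tested. For 9 of the 15 a probe set with a higher mean signal existed, so 6 genes (0.0574%), GREB1, IGFBP1, RBBP8, BCAS1, HTRA1 and FST, passed on the probe set that represents the gene in all counts of genes.

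**Figure D2:**
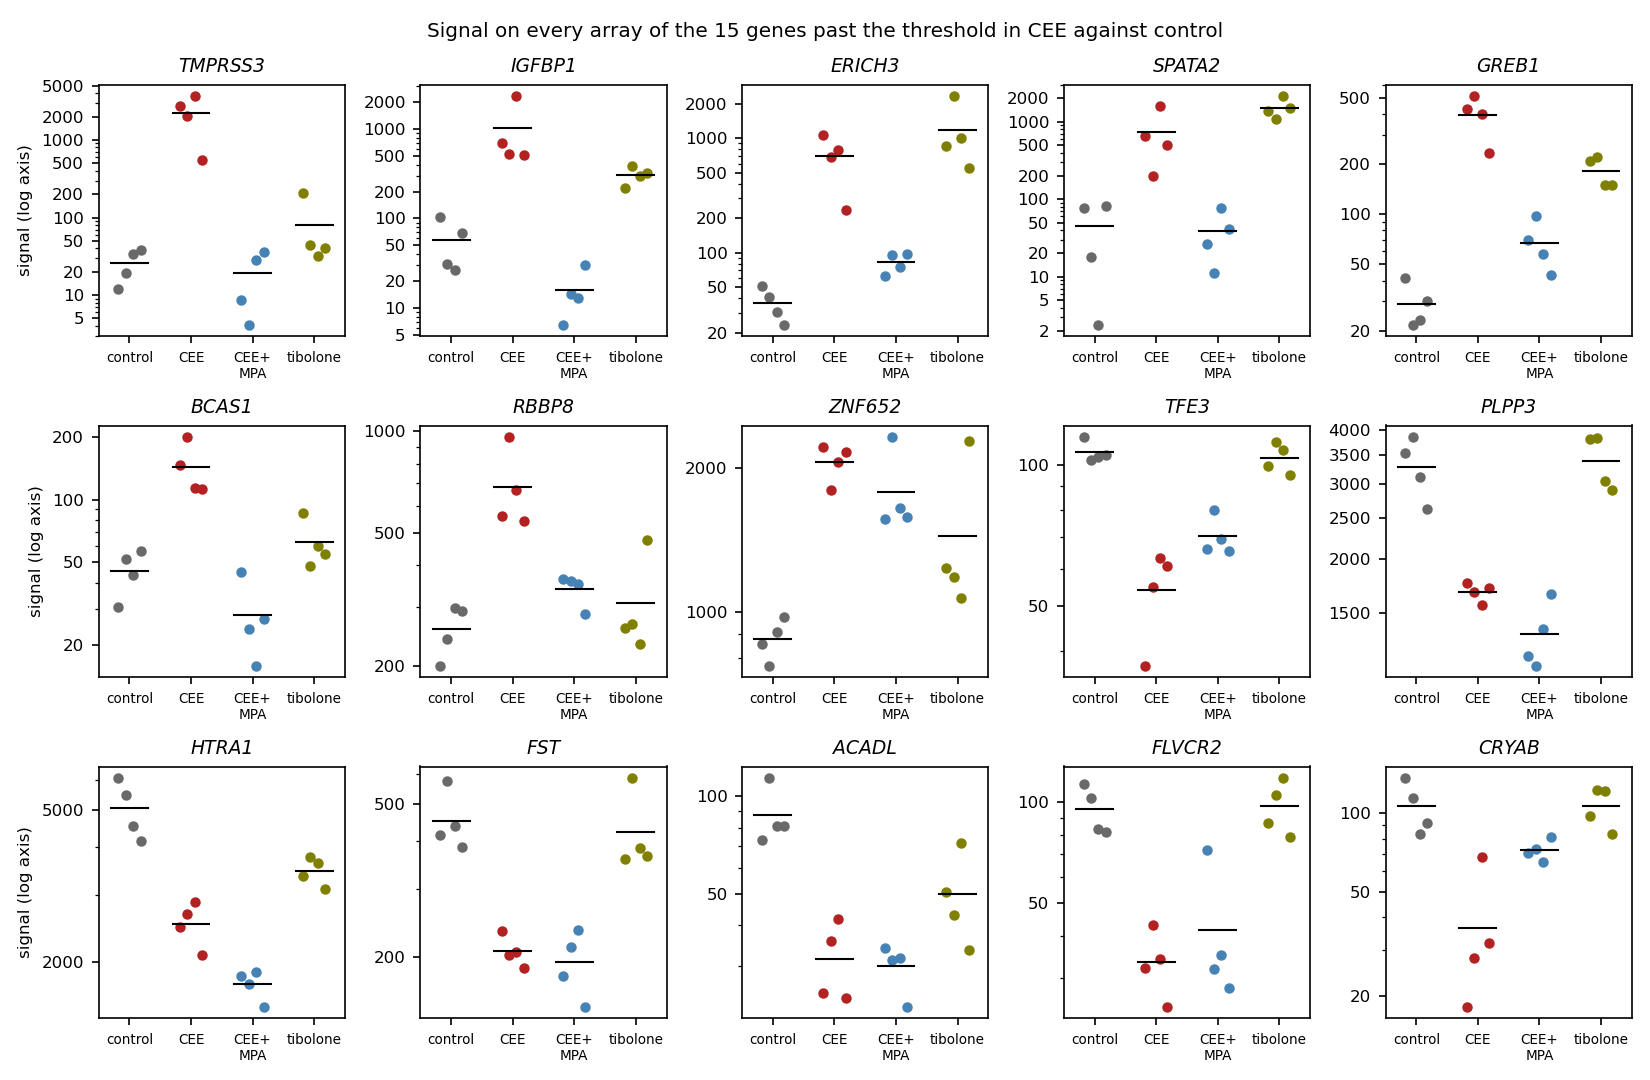
Signal (log axis) of the probe set past the threshold for each of the 15 named genes, 1 point per array, in the 4 groups; bars are group means. CEE and control arrays do not overlap in any panel; CEE+MPA arrays lie near the controls for TMPRSS3 and BCAS1 and near the CEE arrays for PLPP3, FST and ACADL.

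The 6 probe sets without a symbol included one at 3.02 (MmugDNA.30133.1.S1_at) and one at 1.74 (MmugDNA.16112.1.S1_at) that rose, and one at -2.12 (MmuSTS.2543.1.S1_at) and one at -1.77 (MmugDNA.4985.1.S1_at) that fell. Across the 12 probe sets that rose, CEE replicate 4 had the lowest treated signal in 8 and replicate 2 in the other 4. Across the 9 that fell, CEE replicate 3 was the treated animal with the highest signal in 5.

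Within the low and the high spike-in set GREB1 stood at 3.52 and 2.79, IGFBP1 at 3.37 and 3.90, and TMPRSS3 at 5.52 and 5.52. HTRA1 stood at -0.76 and -1.23, FST at -0.87 and -1.25, and PLPP3 at -0.72 and -1.17. With any 1 of the 8 arrays left out, GREB1, TMPRSS3, IGFBP1 and ERICH3 passed each time. For TMPRSS3 and ERICH3 this holds for 1 of 4 tested probe sets, which is not the brightest. RBBP8, BCAS1, ZNF652 and SPATA2 passed in 1, 1, 0 and 3 of these 8 fits, at adjusted p up to 0.153 in limma. Among the genes that fell HTRA1 passed in 5 of the 8, at adjusted p up to 0.0754, FLVCR2 in 0, and FST, PLPP3, TFE3, ACADL and CRYAB in 1 each. The count of probe sets was 6 without CEE replicate 1, 8 and 9 without control replicates 2 and 3, 10 without CEE replicate 2 or 4, 12 without CEE replicate 3, and 18 and 26 without control replicates 1 and 4. Of the 21 that passed on all arrays, 6 to 15 passed again in these fits, and 9 without control replicate 1.

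The genes with the next smallest p lay just beyond the threshold. Among those higher with CEE these were CACNA2D4, a calcium channel subunit (1.30 ± 0.24), IGSF1, an immunoglobulin superfamily membrane protein (1.94 ± 0.37), and NADK2, the mitochondrial NAD kinase (0.72 ± 0.14). THOC5, of the messenger RNA export complex, stood at 1.21 and MCCC2, a subunit of a carboxylase of leucine breakdown, at 1.14. C2H3orf18, MCCD1, TPRG1 and LOC696591 stood at 1.53, 1.70, 1.43 and 0.70, and STAT5A is described with its pathway. Their adjusted p in limma lay between 0.0504 and 0.0830.

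Of the next genes on the lower side, FBLN1, the matrix protein fibulin 1, read 2496, 2935, 3758 and 1733 in controls and 1281, 851, 1127 and 814 with CEE. CXCL12, a chemokine made by fibroblasts, read 1428, 1530.05, 1769.7 and 1760.4 and 753, 505, 585 and 528, and OGN, the proteoglycan osteoglycin, 2512, 2832, 2122 and 1597 and 865, 859.96, 744 and 739. All 3 were lower on every CEE array, at -1.38 ± 0.25, -1.44 ± 0.26 and -1.45 ± 0.28. Their adjusted p in limma were 0.0504, 0.0556 and 0.0581. The other tested probe set of CXCL12, which was dim, stood at 0.24, with overlap between groups. TLR4, the receptor for bacterial lipopolysaccharide, stood at -0.82, ALDH1B1, a mitochondrial aldehyde dehydrogenase, at -1.09, and CHI3L2, a chitinase-like secreted protein, at -1.76. The transcription factor genes OSR2 and PRDM6 stood at -0.88 and -1.05, RGL1, an exchange factor for Ral, at -0.99, and PALMD at -1.21. With 1 probe set per gene in the fit, 25 genes passed: the 6 above, 17 of these 20 (7 higher and 10 lower), and AKAP7 (-0.66) and SRPX (-1.01), at adjusted p up to 0.0488 in limma.

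Among 38 tested estrogen receptor targets, each on the probe set that represents the gene, 3 rose (GREB1, RBBP8 and BCAS1). At an unadjusted p under 0.05, 7 were higher and 2 lower, and the median was 0.15 against 0.014 over all genes. The list was chosen with results of these arrays known, so its count is not independent of them. PGR, the progesterone receptor gene, read 15.6, 20.3, 13.7 and 21.3 in controls and 152, 98.8, 66.9 and 36.6 with CEE. The groups did not overlap, but the difference of 1.51 ± 0.48 did not pass (limma, adjusted p = 0.241), and CEE replicate 4 had the lowest treated value. TFF3, a secreted trefoil peptide, read 298, 73.2, 52.9 and 136 and 3062, 581, 1899.6 and 302, also without overlap, at 2.97 ± 0.66 (limma, adjusted p = 0.103).

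FKBP4, a chaperone of steroid receptors, stood at 0.49 ± 0.15. The list had 15 of 38 members below 0, and the 2 of them at an unadjusted p under 0.05 were CXCL12 and the lysosomal protease gene CTSD. CTSD read 4996, 6365, 3416 and 2607 in controls and 2059.9, 2396, 3025 and 2194 with CEE and stood at -0.77 ± 0.23 (limma, adjusted p = 0.230). Over all genes, every CEE array lay above every control array in 5.28% and below in 5.21%; in the list this was so for 5 and 1 genes. On the probe sets that represent the genes, 35 of the 38 targets did not pass. TMPRSS3, ERICH3 and ZNF652 were among these 35, at -0.28, -0.12 and 0.12, though each rose on another probe set. The probe sets of ESR1, the main estrogen receptor gene, and of PDZK1 and TNFSF11 did not pass the filter on low signal and were not tested.

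The prolactin receptor and STAT5 axis, which drives alveolar differentiation, held 11 tested genes, of which 4 were higher and none lower at an unadjusted p under 0.05, with a median of 0.17. At that p 6.68% of all genes were higher. Another 4 of the 11 stood below 0, the lowest at -0.40. STAT5A, a transcription factor activated by prolactin, read 286, 189.8, 436 and 701 in controls and 865, 1146, 1196 and 1199.8 with CEE, at 1.56 ± 0.33 (limma, adjusted p = 0.0830). Its relative STAT5B read 1414, 1094, 1624 and 1912 and 3089.8, 2793, 3232 and 4002, at 1.13 ± 0.27 (adjusted p = 0.134 in limma). CISH, an inhibitor induced by STAT5, read 1094, 639, 286 and 762 and 2573, 1629.9, 1490.4 and 3326, at 1.74 ± 0.39 (adjusted p = 0.103 in limma). These 3 and ELF5 (0.75 ± 0.33) did not overlap between the groups, and none passed over all probe sets. Over all genes, 5.28% had every CEE array above every control. The sum of signals over the list ran from 22081 to 29999.99 in controls and from 32865 to 39596 with CEE. The list's median stayed above 0 under all 26 alternatives tried.

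Of 30 Wnt pathway genes 2 were higher and 6 lower at an unadjusted p under 0.05 (median -0.22). RSPO1, the R-spondin ligand that amplifies Wnt signals, read 182, 207, 169 and 194 in controls and 1073, 907, 1140.2 and 1078 with CEE. Both groups were tight and far apart, at 2.38 ± 0.58, yet the gene did not pass (limma, adjusted p = 0.149). On the CEE+MPA and tibolone arrays, which entered the same fit, RSPO1 varied from 270.3 to 3087 and from 111 to 847. Why the gene did not pass was not tested. The 6 lower at an unadjusted p under 0.05 included the secreted Wnt inhibitors WIF1 (-1.67 ± 0.48) and SFRP2 (-0.67 ± 0.21), the ligand WNT10B (-0.51 ± 0.17) and LGR5, an R-spondin receptor (-1.42 ± 0.61). WIF1 read 989, 1315, 973 and 320.2 in controls and 305, 188, 351 and 167 with CEE, so control replicate 4 lay within the CEE range. Leaving out 1 array in turn gave 1 to 3 genes higher and 4 to 7 lower.

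Among Notch and Hedgehog genes DLK1, a Notch-like membrane protein, stood at 1.87 ± 0.57, with 197, 28.2, 182 and 157 in controls and 1104, 514, 462 and 186 with CEE. GLI1, a Hedgehog effector, stood at -0.71 ± 0.20, and the Notch ligands DLL1 and JAG1 at -0.69 and -0.43. In all, 1 of the 19 tested was higher and 5 were lower at an unadjusted p under 0.05. These were 5.26% and 26.3%, against 6.68% and 7.47% of all genes. The count lower was 3 without CEE replicate 1 or control replicate 1 or 2.

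The insulin-like growth factor list held 19 tested genes, including IGFBP1, which rose, and HTRA1, which fell. The adaptor genes IRS1 and IRS2, which carry the signal of the receptor, stood at 0.73 ± 0.27 and 0.54 ± 0.24 and did not pass. The median was -0.079 and turned above 0 in 6 of 26 alternatives, 3 of them with 1 array left out (CEE replicate 2 or 4 or control replicate 2).

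In the transforming growth factor beta, activin and bone morphogenetic protein list, FST fell, and 9 of 31 tested genes were lower and none higher at an unadjusted p under 0.05. The ligands INHBA, the activin A subunit (-0.92 ± 0.32), and BMP2 (-0.71 ± 0.24) and the target TGFBI (-0.78 ± 0.20) were among them. INHBA read 415, 297, 328 and 171 in controls and 124, 149.5, 106 and 224 with CEE, with overlap between control replicate 4 and CEE replicate 4. TGFBI, a matrix protein induced by the pathway, read 1983, 2451, 2535 and 1797 and 1184, 1142, 1454 and 1257, without overlap. The inhibitor follistatin and its ligand INHBA were thus both on the lower side. The list's median was -0.34, and the count lower was 5 without control replicate 2.

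Proteoglycan and elastic fibre genes had a median of -0.33, with 7 of 24 lower and none higher at an unadjusted p under 0.05. Every CEE array lay below every control in 9 of the 24, against 5.21% of all genes. DPT, dermatopontin of the collagen matrix, read 2654, 2427, 4398 and 3084 in controls and 1260.5, 1056, 846 and 1268 with CEE, at -1.47 ± 0.30 (limma, adjusted p = 0.0741). FBLN5, an elastic fibre protein, read 1592, 2181, 1986 and 1605 and 862, 851, 910.2 and 1067, at -0.98 ± 0.26. The median was -0.27 in the low and -0.40 in the high spike-in set.

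Collagens and their processing enzymes had 6 of 24 lower and 1 higher at an unadjusted p under 0.05 (median -0.33). The count lower was 2 without CEE replicate 4 or control replicate 2 and 3 without CEE replicate 3 or control replicate 1, and the median -0.21 without CEE replicate 4. With the skeletal muscle or the adipocyte covariate 1 or 2 stood lower, at medians of -0.22 and -0.20. P4HA2, a collagen prolyl hydroxylase, stood at -0.62 ± 0.17 and LOX, the collagen cross-linking enzyme, at -1.08 ± 0.41. LOX read 692, 822, 529 and 344 in controls and 275, 374, 302 and 147 with CEE, with control replicate 4 inside the CEE range. COL3A1 was the member higher at that p, at 0.63 ± 0.16, on a probe set that read only 63.3 to 82.6 in controls and 115 to 133 with CEE, close to the table median of 60.2. The list's median was -0.054 in the low and -0.48 in the high spike-in set.

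Matrix proteases and their inhibitors had 12 of 28 lower, of which HTRA1 fell, and 3 higher at an unadjusted p under 0.05 (median -0.41). The inhibitors SERPING1 and TIMP3 stood at -0.63 ± 0.17 and -0.83 ± 0.24. SERPING1, the C1 inhibitor, was below all controls on every CEE array. TIMP3, an inhibitor of metalloproteinases, read 555, 699, 750.2 and 344 and 295, 249, 333 and 375, and control replicate 4 overlapped the treated group. The members higher at that p were MMP7, ADAM12 and MMP16, at 1.47, 1.38 and 0.61.

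Macrophage markers had the largest share on the lower side among lists of at least 10 tested genes, with 12 of 21 lower and none higher at an unadjusted p under 0.05, against 7.47% of all genes, and a median of -0.70. None passed over all probe sets, and the count lower was 7 without CEE replicate 4 or control replicate 4. CD68, a lysosomal marker of macrophages, read 965, 746, 581 and 815 in controls and 231, 379, 482 and 189 with CEE, without overlap, at -1.30 ± 0.28 (limma, adjusted p = 0.0830). C1QB, a complement chain that macrophages make, read 1304, 2014, 1539.5 and 1743 and 701, 962, 1176 and 539, also without overlap, at -0.996 ± 0.30. FOLR2, a folate receptor of resident macrophages, stood at -0.78 ± 0.24 and MS4A7 at -0.82 ± 0.19.

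The list's mean level per array, each gene centred over the 16 arrays, ran from 0.20 to 0.57 in controls and from -0.67 to -0.0007 with CEE, so the groups did not overlap. CEE replicates 1 and 4 were lowest. The median was -0.69 in the low and -0.65 in the high spike-in set. The sum of signals was 44389.96 to 50578 in controls and 39857 to 46466 with CEE, where the groups did overlap. The median stayed below 0 under all 26 alternatives, between -0.85 and -0.47. T and NK cell markers had 1 of 11 lower at an unadjusted p under 0.05, 9.09% against 7.47% of all genes. Their median of -0.20 turned above 0 without CEE replicate 1. Whether the macrophage list differed from the lymphocyte list was not tested.

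All 19 endothelial markers had a log2 fold change below 0, as had all 14 smooth muscle and pericyte markers, where 47.9% of all genes did. The medians were -0.35 and -0.37, and 4 and 5 members were lower at an unadjusted p under 0.05. EMCN, the vessel sialomucin endomucin, read 1359, 1399, 1421 and 1454 in controls and 1181, 954, 908 and 922 with CEE, without overlap (-0.51 ± 0.17). RAMP2, a coreceptor of adrenomedullin in vessels, stood at -0.52 ± 0.19, and TEK, the angiopoietin receptor, at -0.50 ± 0.19. KCNJ8, a potassium channel of pericytes, read 143, 176, 106 and 90.9 and 71.5, 80.3, 89.1 and 51.9 (-0.68 ± 0.23), and KCNMB1, of smooth muscle, stood at -0.52 ± 0.22. In the low and the high spike-in set the medians were -0.24 and -0.47 for endothelial and -0.21 and -0.47 for smooth muscle markers. No member of either list passed over all probe sets. The count lower among endothelial markers was 1 without CEE replicate 2 or control replicate 2 and 7 without control replicate 4, and among smooth muscle markers 1 without control replicate 2 and 3 without CEE replicate 1, 2, 3 or 4 or control replicate 1 or 3.

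No fat marker passed, and no tested member had every CEE array below every control, which 5.21% of all genes had. The adipocyte list had a median of -0.62, 20 of 21 members below 0 and 4 lower at an unadjusted p under 0.05. That count was 1 without control replicate 2 and 2 without CEE replicate 2 or control replicate 1, and the median -0.37 without CEE replicate 4. RETN, the adipokine resistin, read 254, 271, 261 and 145 in controls and 108, 185, 117 and 100.1 with CEE, and CFD, the adipokine adipsin, 7067, 12571, 7150.4 and 6522 and 3488, 3268, 8181 and 2811. Control replicate 4 overlapped the treated group for RETN and CEE replicate 3 the controls for CFD. The sum of signals over the list was 34544 to 60057 in controls and 24962 to 43301 with CEE. The median was -0.11 in the low and -1.17 in the high spike-in set. The lowest list mean was on CEE replicate 4 (-1.03) and the highest on control replicate 1 (0.70).

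With the adipocyte mean as a covariate 12 probe sets passed, 11 higher and 1 lower, against 12 and 9 without it. Only 8 of these 12 were among the 21 that passed without it. Under that covariate the medians were -0.47 for macrophage, -0.33 for endothelial, -0.32 for smooth muscle and -0.21 for proteoglycan genes. With it, 7 macrophage members stood lower at an unadjusted p under 0.05, in place of 12.

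Skeletal muscle markers had the lowest median of the lists, -1.13, with 3 of 16 lower at an unadjusted p under 0.05. It rested on 1 animal: the list mean was 2.31 on control replicate 1, -0.81 to -0.11 on the other controls and -1.04 to -0.73 on the CEE arrays. TNNT3, a troponin of fast muscle fibres, read 1887, 248, 333 and 266 in controls and 125, 65.4, 161 and 200.04 with CEE. Without control replicate 1 the list's median was -0.32, while that of the macrophage list was -0.75 and that of the endothelial list -0.41. The count lower was 1 without CEE replicate 2 or control replicate 1 and 5 without control replicate 2. With the muscle mean as a covariate 8 probe sets passed, 6 higher and 2 lower, and 6 of the 8 were among the 21 that passed without it.

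**Figure D3:**
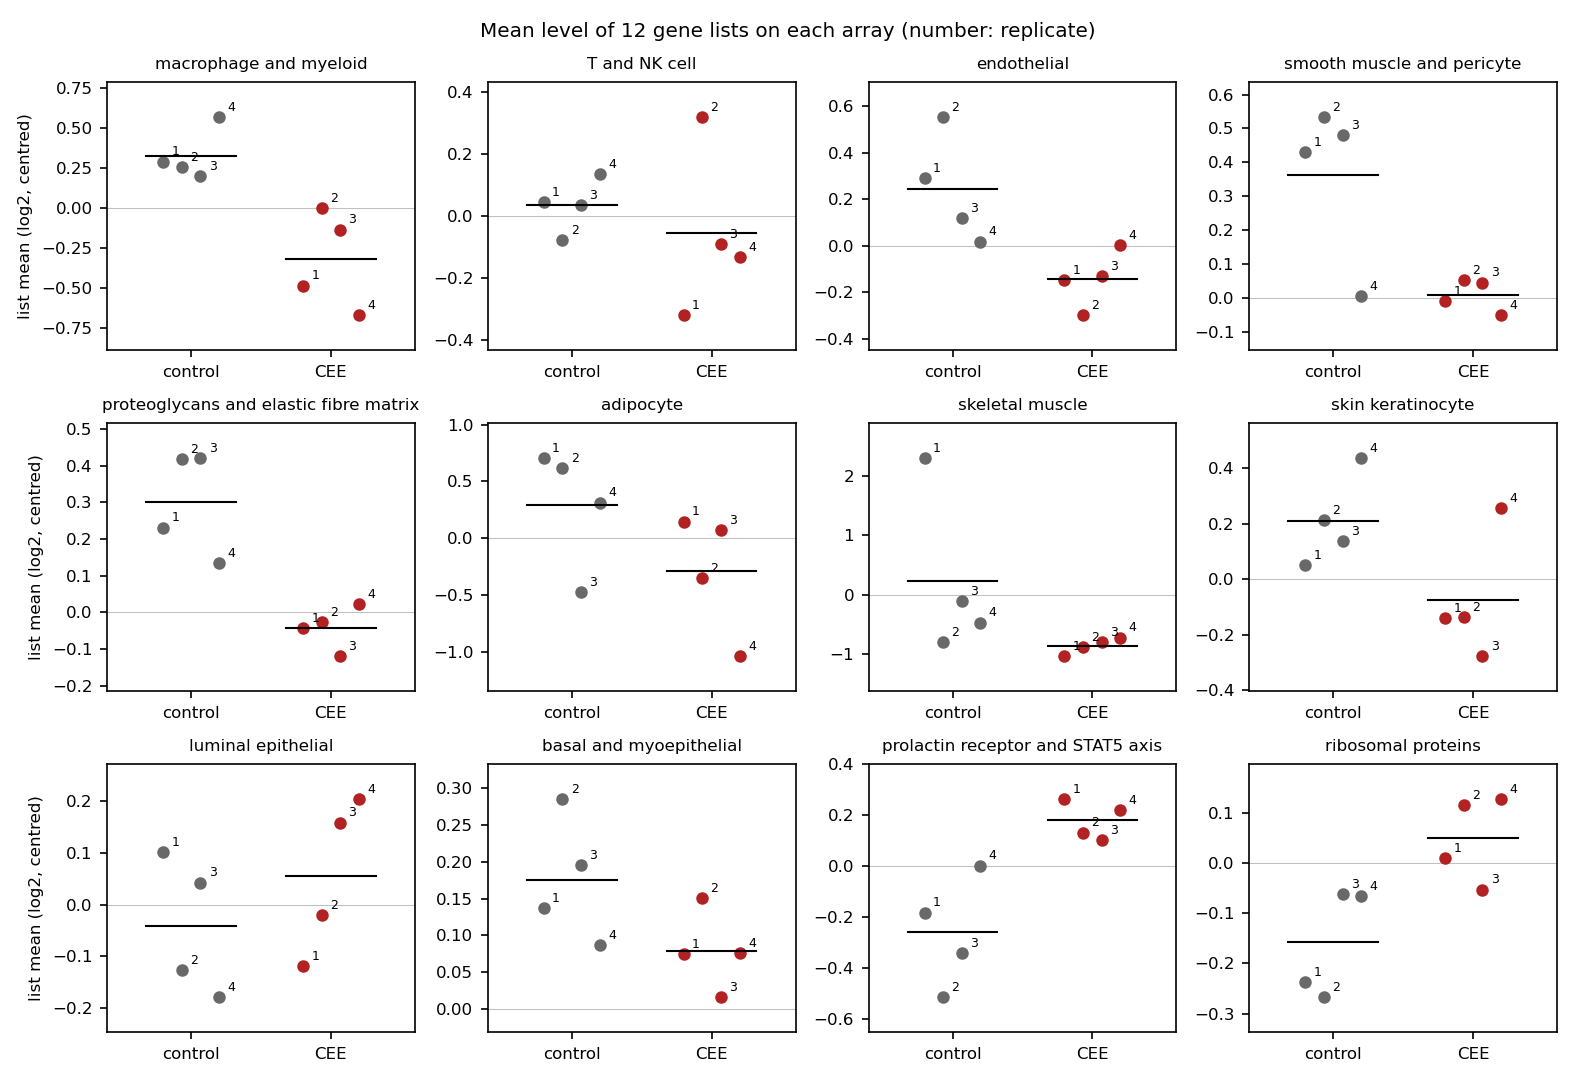
Mean level of 12 gene lists on each control and CEE array, with each gene's log2(signal + 16) centred on its mean over all 16 arrays; points are numbered by replicate and bars are group means. The macrophage, proteoglycan, STAT5, endothelial and ribosomal panels show no overlap between groups, with a narrow gap for endothelial and ribosomal genes. The other panels overlap, and control replicate 1 stands alone in the skeletal muscle panel.

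Luminal markers had a median of 0.20, with 2 higher and 2 lower of 20 at an unadjusted p under 0.05. This was 10% each, near the 6.68% and 7.47% of all genes. SPDEF, a luminal transcription factor, stood at 0.80 ± 0.23 and ELF5 at 0.75 ± 0.33, while the keratins KRT8 and KRT18 stood at -0.51 ± 0.18 and -0.52 ± 0.23. KRT18 read 610.2, 878, 699 and 811 in controls and 506, 479, 555 and 515 with CEE, without overlap. The list's mean ran from -0.18 to 0.10 in controls and from -0.12 to 0.20 with CEE, with overlap. The sum of signals over the list ran from 61985 to 68442 in controls and from 70455 to 80896 with CEE, without overlap. Leaving out 1 array in turn gave 1 to 3 luminal genes higher and 1 to 2 lower. The basal list had a median of -0.18, with ITGA6, an integrin of the basal layer, at 0.51 ± 0.22; the median was -0.044 without control replicate 2.

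Milk protein and secretory genes had a median of -0.92, with 5 of 18 lower and 1 higher at an unadjusted p under 0.05. SPP1, the secreted phosphoprotein osteopontin, read 10716, 12741, 7211 and 7964 in controls and 461, 2029, 897 and 146 with CEE. The groups did not overlap, yet the difference of -3.94 ± 1.06 did not pass (limma, adjusted p = 0.184). LPO, the antibacterial milk enzyme lactoperoxidase, read 1083, 739, 784 and 597 and 252, 463, 391 and 136, at -1.42 ± 0.30 (limma, adjusted p = 0.0894). WFDC2, a secreted protease inhibitor, read 4713, 6498, 4203 and 1677 and 2026, 2358, 1595 and 879, and BPIFB1, an antibacterial protein of mucosal secretions, 959, 508, 214 and 221 and 47.2, 327, 42.7 and 68.9. WFDC2 and BPIFB1 stood at -1.24 ± 0.48 and -2.001 ± 0.59, each with some overlap between groups. ELF5 was the 1 member higher at an unadjusted p under 0.05, and 7 of the 18 stood above 0. The milk proteins themselves, chosen after their values were seen, lay on both sides of 0. The casein genes CSN2 and CSN3 stood at 0.17 ± 0.14 and 0.15 ± 0.20, with overlap between groups. CSN2 read 12109, 12162, 12139 and 11988 in controls and 15458, 11435, 13518 and 14222 with CEE. LALBA, the gene of alpha-lactalbumin, read 16713, 16922, 10825 and 17956 and 2972, 17684, 6545 and 1039, at -1.81 ± 1.31. None of the 3 passed. The list's median was -0.50 without CEE replicate 4, and -0.43 and -0.61 with the adipocyte and the skeletal muscle covariate. Its count lower was 3 without CEE replicate 4 or control replicate 2. The median was -0.32 in the low and -1.98 in the high spike-in set.

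Cell cycle genes had a median of 0.17 with 1 of 34 higher and 1 lower, 2.94% each against 6.68% and 7.47% of all genes, at an unadjusted p under 0.05. With 1 array left out, 0 to 1 stood higher and 0 to 1 lower, and the median was 0.10 without CEE replicate 3 or control replicate 2. The median was -0.014 in the low and 0.41 in the high spike-in set. MKI67, the proliferation marker Ki-67, read 120.3, 86.7, 110.03 and 153 in controls and 177, 84.4, 187 and 125 with CEE. Its difference was 0.22 ± 0.43 (95% interval -0.69 to 1.13), which leaves room for a change in either direction. CDKN2C, an inhibitor of cyclin-dependent kinases, stood at -0.58 ± 0.21 and CDK6, one of these kinases, at 0.49 ± 0.21. CDKN2C was below all controls on every CEE array.

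Ribosomal protein genes had a median of 0.28, with 9 of 26 higher and none lower at an unadjusted p under 0.05. Every CEE array lay above every control in 10 of the 26, against 5.28% of all genes. RPL23, a protein of the large ribosomal subunit, read 12465, 11405, 15574 and 15018 in controls and 18399, 17624, 17777 and 18891 with CEE (0.43 ± 0.14). RPL22 and RPL10A stood at 0.56 ± 0.20 and 0.40 ± 0.15. Respiratory chain genes lay the same way, with 6 of 28 higher, none lower and a median of 0.18. NDUFS4 and NDUFA4, of complex I, stood at 0.45 ± 0.14 and 0.43 ± 0.15 and ATP5PO, of the ATP synthase, at 0.36 ± 0.12. No gene of either list passed over all probe sets, and the number of ribosomal genes at an unadjusted p under 0.05 ranged from 1 to 13 over the alternatives. It was 3 without control replicate 2, 4 without CEE replicate 4 or control replicate 1 and 5 without CEE replicate 1, and that of respiratory chain genes 3 without control replicate 1 or 2.

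Chemokine and cytokine genes had 5 of 26 lower and none higher at an unadjusted p under 0.05 (median -0.34). The median was -0.23 without CEE replicate 1, -0.20 without control replicate 1 and -0.19 without control replicate 4, -0.21 with the adipocyte covariate, and -0.20 in the low and -0.28 in the high spike-in set. The count lower was 3 without CEE replicate 3. CCL3, a chemokine of activated macrophages, read 198, 115, 64.8 and 166 in controls and 18.5, 52.9, 29.4 and 16.5 with CEE, without overlap, at -1.72 ± 0.36 (limma, adjusted p = 0.0830). CCL2, which attracts monocytes, read 1289, 708, 436 and 948 and 435, 524, 292 and 244, at -1.10 ± 0.32. ACKR3, a scavenging receptor of CXCL12, read 2356, 3033, 2657 and 2653 and 1920.2, 1523, 1183 and 1359.7. The receptor, as well as CXCL12 on its brightest probe set, was lower on every CEE array. IL6R, the interleukin 6 receptor, stood at -0.64 ± 0.23.

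C1S, a serine protease of the complement pathway, read 5808, 6541, 6089 and 6291 in controls and 3407, 3999.8, 3318 and 2988 with CEE. This was a tight separation, at -0.85 ± 0.18 (limma, adjusted p = 0.0762). Of 15 complement and acute phase genes 5 were lower and 1 higher at an unadjusted p under 0.05, and the count lower was 1 without control replicate 2, 2 without CEE replicate 3 and 3 without CEE replicate 1 or 4 or control replicate 1. Interferon response genes had 5 of 29 lower and 2 higher at that p (median -0.29); the count lower was 2 without CEE replicate 4, 3 without control replicate 1 and 12 without CEE replicate 2, and the median -0.47 without CEE replicate 2. SAMD9L, an antiviral gene, stood at -0.64 ± 0.17 and IRF1, an interferon regulatory factor, at -0.63 ± 0.20, while GBP2, a guanylate-binding protein, stood at 0.53 ± 0.19.

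FOS, the immediate early transcription factor, read 7635, 1978, 939.6 and 2021 in controls and 643, 337, 2259 and 929 with CEE, a wide spread in both groups (-1.47 ± 0.62). The immediate early list had 2 of 19 members lower at an unadjusted p under 0.05, and 0 without CEE replicate 2 or control replicate 1, 1 without control replicate 2 and 8 without control replicate 3. Growth factors of the fibroblast and vascular families had 5 of 15 lower and 1 higher at an unadjusted p under 0.05, and the count lower was 2 without control replicate 2 and 3 without CEE replicate 1, 2 or 3 or control replicate 1. FGF9 and FGF18 stood at -1.05 ± 0.32 and -0.99 ± 0.38 and PGF, the placental growth factor, at -0.73 ± 0.30, while PDGFC stood at 0.76 ± 0.30.

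**Figure D4:**
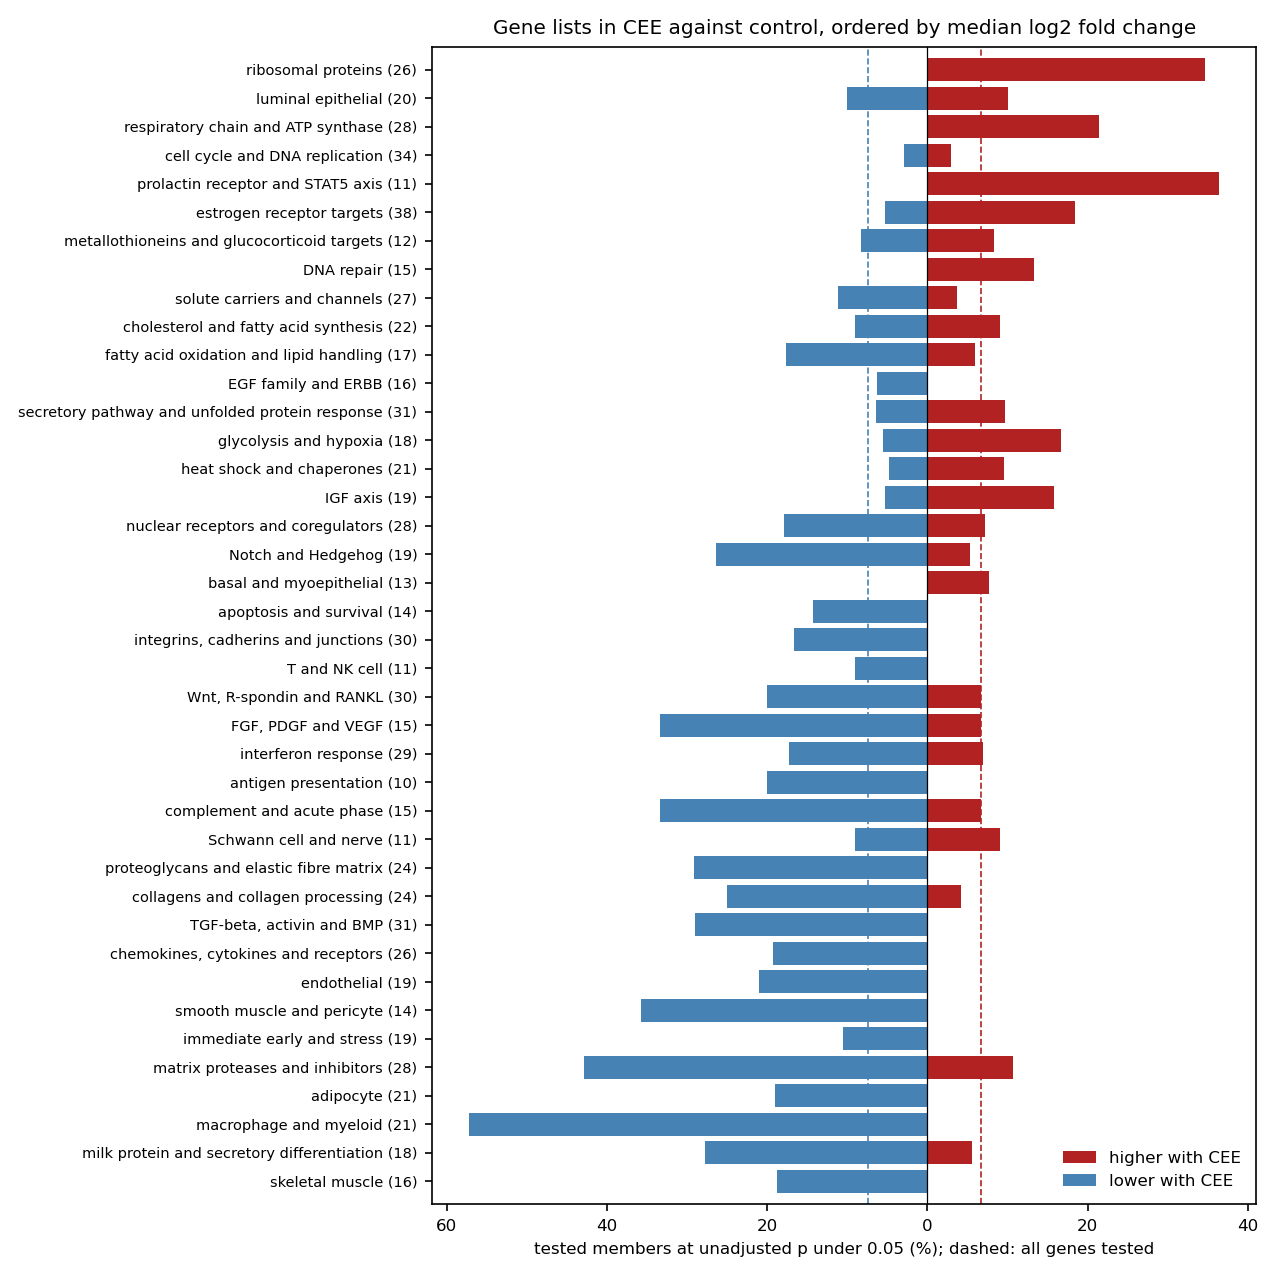
Share of the tested members of each gene list (number in brackets) at an unadjusted limma p under 0.05, higher with CEE to the right and lower to the left, for the 40 lists with at least 10 tested members; dashed lines mark 6.68% and 7.47% of all genes. Macrophage markers reach 57.1% on the lower side, and STAT5 axis and ribosomal genes 36.4% and 34.6% on the higher.

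Differences beyond 2 on the log2 scale were seen in 21 genes. The groups did not overlap in 9 of these and overlapped in the rest. Among all genes, every CEE array lay above every control in 5.28% and below in 5.21%. Of the 9, the 7 that did not pass are given here, chosen after their values were seen. Besides TFF3, RSPO1 and SPP1 these were NEFH, the heavy neurofilament (37.2, 22.9, 39.6 and 10.9 in controls and 173, 2990.3, 3384 and 62.3 with CEE), and ADAMTS8, a secreted metalloprotease (81.03, 129, 66.6 and 75.2 and 1135, 466, 693 and 382). NEFH stood at 3.89 ± 1.01 and varied from 62.3 to 3384 among the treated animals. ADAMTS8 stood at 2.63 ± 0.58. LOC722305 and KRT71, a keratin of the hair follicle, were lower, at -3.94 ± 0.997 and -2.36 ± 0.66. KRT71 read 7.27, 397, 187 and 61.5 in controls, so control replicate 1 lay close to the CEE range of 4.50 to 7.16.

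The genes that rose with CEE were set beside the CEE+MPA arrays, a contrast that shares the CEE arrays on which they were chosen. Of the 6 probe sets lower with CEE+MPA than with CEE (0.0209% of those tested), 5 were those of GREB1, TMPRSS3, IGFBP1, ERICH3 and BCAS1 that rose with CEE. For TMPRSS3 and ERICH3 this is 1 of 4 tested probe sets. IGFBP1 read 6.47 to 30.2 with CEE+MPA, at -4.76 ± 0.43 against CEE (limma, adjusted p = 0.000212). TMPRSS3 read 4.14 to 36.2, at -5.82 ± 0.55, and GREB1 43.1 to 97.7, at -2.29 ± 0.24. BCAS1 read 15.96 to 44.9, at -1.86 ± 0.22. The levels of IGFBP1 and BCAS1 on CEE+MPA arrays reached down to or below those of the controls.

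SPATA2, RBBP8 and ZNF652 did not pass in that contrast, at -3.57 ± 0.59, -0.94 ± 0.22 and -0.22 ± 0.20 (limma, adjusted p = 0.0526, 0.261 and 0.828). Among the genes that fell with CEE, HTRA1 read 1519.9 to 1882, FST 149 to 235 and PLPP3 1127 to 1655 with CEE+MPA, at -0.52 ± 0.15, -0.11 ± 0.18 and -0.34 ± 0.16 against CEE, none of which passed. On tibolone arrays GREB1 read 149.8 to 222, IGFBP1 218 to 384 and ERICH3 551 to 2331. For HTRA1 they read 3109.8 to 3772, and for FST 359.7 to 585. PGR read 8.75 to 27.5 with CEE+MPA and 5.80 to 179 with tibolone, and STAT5A 1031 to 1375 and 374 to 957. The doses and compounds differ, and these comparisons share the control or the CEE arrays, so the values are set side by side only.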

How the data were processed

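Total RNA of mammary tissue was hybridized to Affymetrix rhesus arrays, 1 array per animal, so p-values measure the spread between animals. The deposited values are linear intensity, scaled by the authors to one trimmed mean on all arrays. The submitters' processing notes name GCOS and Affymetrix Expression Console, with algorithm and versions not given in the sources used here.

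Probe sets above the table median (60.2) in at least 4 of 16 arrays were tested (28704 of 52865, without 99 controls). A limma fit of the 4 group means to log2(signal + 16) was used, with Benjamini-Hochberg adjustment over all probe sets at 0.05. The offset understates changes of dim genes. Each of 10452 genes is represented by the probe set of highest mean among those tested. Of all probe sets 24969 had 1 symbol, 361 several and 27535 none.

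Candidates for naming were the 15 genes that passed, the next 10 in each direction and a panel of 20. Up to 4 members with the smallest p of each of 45 lists (838 of 1311 members tested) were candidates too. Not all are described above. The panel genes AREG, CCND1, MYC, WNT4 and ESR2 stood at 0.70, 0.29, 0.53, 0.71 and -0.15, overlapped between groups and did not pass. Other genes were chosen after their values were seen. Members, lists and tests were chosen with earlier results of these data known. On simulated data 60 of 100 probe sets changed by 1 on the log2 scale and 96 of 100 changed by 2 were recovered, with 8 unchanged ones called. The simulated noise was normal, independent between probe sets and of equal spread on all arrays, with no array set apart. The shares apply to such noise and are not the sensitivity on the real arrays. Fits were made in limma 3.58.1 (R 4.3.3) and figures in matplotlib 3.10.9 (Python 3.11.15).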

Additional observations from a re-analysis of the deposited data

Results flagged for a closer look

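A gene named in the results above was marked where 1 of the 4 arrays of a group stood apart from the other 3. The limit was Dixon's 95% critical value on the log2 scale, which chance alone passes in about 1 in 20 groups. It was passed in 11 of 242 groups. C2H3orf18 read 221 on control replicate 4, above the other 3 at 108 to 116. On control replicate 3 the signal of LOC696591 was 4172, below the range of 4512 to 4556 on the rest of its group. For STAT5A, CEE replicate 1 gave 865, below 1146 to 1199.8 on its group's other arrays. MS4A7 read 941 on control replicate 4, above the other 3 at 671 to 706. On control replicate 4 the signal of RETN was 145, below the range of 254 to 271 on the rest of its group. For CFD, control replicate 2 gave 12571, above 6522 to 7150.4 on its group's other arrays. TNNT3 read 1887 on control replicate 1, above the other 3 at 248 to 333. On control replicate 2 the signal of DLK1 was 28.2, below the range of 157 to 197 on the rest of its group. For CDK6, CEE replicate 3 gave 156, above 113 to 116 on its group's other arrays. CSN3 read 18724 on control replicate 3, above the other 3 at 17311 to 17529.7. On control replicate 3 the signal of LALBA was 10825, below the range of 16713 to 17956 on the rest of its group.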

How the results depend on the processing

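The count of 21 probe sets (12 higher, 9 lower, 42.9% lower) was 16 with quantile normalization (31.25% lower) and 18 with median centring (27.8% lower). It was 10 with no filter, 50 with an offset of 64, 66 with only CEE and control arrays, 140 with array weights and 71 with the GAPDH covariate. It was 8 with the skeletal muscle covariate and 12 with the adipocyte covariate, of which 6 and 8 were among the 21. At a threshold of 0.10 it was 99 (0.345% of those tested). Other planned settings gave 14 to 30. Of the 30, found with a filter at the 75th percentile, 13 were among the 21. Leaving out 1 array gave 6 (without CEE replicate 1) to 26 (without control replicate 4). It gave 8 without control replicate 2, 9 without control replicate 3, 10 without CEE replicate 2 or 4 and 12 without CEE replicate 3. Chosen after seeing the data, the spike-in sets as a block, with tibolone arrays counted as high, gave 33. The low set alone gave 2, the high set alone 2, and the omission of 4 arrays rich in skeletal muscle 16. All 21 kept their sign wherever they were tested.

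GREB1 passed in all 25 alternatives that kept its probe set, TMPRSS3, ERICH3 and IGFBP1 in all but the fits within 1 spike-in set. For TMPRSS3 and ERICH3 this holds for 1 of 4 tested probe sets. Every other named gene that passed lost its call when some single array was left out. CSN3 changed sign with quantile normalization (-0.057), MKI67 changed sign within the low spike-in set (-0.071), MMP16 changed sign within the high spike-in set (-0.031), and the cause was not tested. The medians of 28 of 45 lists kept their sign under all 26 alternatives. No paired analysis was possible because the labels give no replicate numbers and no animal had more than 1 treatment. Arrays carry no read depth, so 4 animals a group limit the precision.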
